A study of Mus musculus with 6 samples.

Results

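Integrin subunits and the adaptors that tie them to the actin cytoskeleton were examined in bone marrow progenitors that had lost Brd9, whose bromodomain protein belongs to the non-canonical form of the SWI/SNF chromatin remodeller. The set was chosen by symbol and held 36 genes of the 24411 listed in the files, namely 17 α subunits, 9 β subunits and 10 adaptors (talins, kindlins, vinculin, integrin-linked kinase and parvins). Of these 36 genes, 29 passed the filter on low counts and were tested among 12953 genes, and 7 were not tested. The Brd9 KO group held 3 libraries from CD45.2(+) Mx1-Cre Brd9fl/fl mice, and the control group held 3 libraries from CD45.2(+) Brd9fl/fl mice without Cre. All mice were C57BL/6, and both groups received 3 doses of pIpC at 20 mg/kg, a double-stranded RNA mimic, 8 weeks before the cells were taken. Mx1-Cre is a recombinase driven by an interferon-inducible promoter, so deletion is not limited to blood cells, and an effect of Cre itself and loss of Brd9 cannot be told apart. The labels name lineage-negative marrow of femora and tibiae, while the study's methods add sorting for c-Kit. The sources also disagree on the start of treatment, which the design text places in primary mice 4 weeks after birth and a label in transplant recipients. The mice are described as 4 months old at analysis. The methods call the replicates biological, and the labels do not say that they came from separate animals, so p-values measure the spread between these libraries.

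Each integrin is a pair of an α and a β subunit that crosses the membrane, binds matrix proteins or counter-receptors outside the cell and recruits talin and kindlin to the β tail inside it. Talin and kindlin switch the pair to its high-affinity state, vinculin links talin to actin, and integrin-linked kinase with a parvin forms a further bridge to actin. In marrow, αIIbβ3 (Itga2b and Itgb3) marks megakaryocytes and their precursors, the β2 integrins mark leukocytes, and α4 and β1 integrins hold progenitors in their niche.

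Of the 29 tested members, 13 rose and 0 fell in Brd9 KO progenitors (edgeR quasi-likelihood test, Benjamini-Hochberg adjusted p under 0.1, the adjusted p threshold of the study). They were the α subunits Itga2b, Itgam, Itgal, Itgav and Itgae, the β subunits Itgb3, Itgb2 and Itgb5, and the adaptors Tln1, Vcl, Ilk, Parvb and Parvg. The study's counts of changed genes also required a change over 1.5-fold. With that minimum 10 members rose and 0 fell, without Itgal, Ilk and Parvg, beside 877 higher and 348 lower of all 12953 tested genes. At an unadjusted p under 0.05, 1 member (Itga8) was lower, DESeq2 also called 1 lower (Itga8), and limma-voom and limma on log2(TPM + 1) called 0. The 13 made up 44.8% of the tested members, against 9.19% of all tested genes that were called higher, 6.25% called lower and 15.4% called in either direction. Itgae is among the 13, though it passed the filter on low counts through its KO libraries. The median log2 fold change (Brd9 KO over control) was 0.53 over the members and 0.02 over all tested genes. By class, 5 of 15 α subunits (33.3%), 3 of 7 β subunits (42.9%) and 5 of 7 adaptors (71.4%) rose. All 3 KO libraries lay above all 3 control libraries for 15 of the 29 members, which was so for 17.2% of all tested genes. They lay below control for 2 members, Itga8 and Itgax, which was so for 16.3% of all tested genes, and the groups did not overlap in either direction for 33.5% of them. Members were chosen with earlier results of these data known, so these counts are a description.

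The libraries held between 21151031 and 28500168 expected read counts, and between 15160 and 15491 genes had a count. Brd9 was at 15.6, 13.5 and 21 CPM (read counts scaled to library size with TMM factors) in KO libraries 1 to 3, against 45.9, 49.1 and 52.1 CPM in control libraries, which leaves 34.1% (edgeR adjusted p = 0.00345; exact two-sided permutation p = 0.1, the smallest that 3 against 3 allows). Kit, the gene of the receptor c-Kit, was at 269, 266 and 178 CPM in KO libraries and 205, 228 and 229 CPM in control libraries. KO library 3 stood apart on the second principal component (27% of variance), and its 16 matched neutrophil markers summed to 8829 CPM, against 1431 and 1629 CPM in the other KO libraries and 2050 to 3510 CPM in control libraries. Other sums were also highest there. In KO libraries 1 to 3, B and plasma cell genes summed to 3643, 3423 and 7380 CPM, and late erythroid genes to 828.2, 876.5 and 1731 CPM. Eosinophil genes summed to 4472, 4413 and 8606 CPM. Sums of progenitor, megakaryocyte and platelet, mesenchymal stroma and endothelial genes were the lowest of the KO group in library 3. Without this library 18 members were called higher, and so were 16.3% of all tested genes. Markers of other cells also moved, beside 9.19% of all tested genes called higher and 6.25% called lower. Summed levels were 4410 to 8610 CPM in KO libraries against 1950 to 2540 CPM in control libraries for 10 eosinophil genes, of which 9 rose and 1 fell. They were 3490 to 5320 against 2050 to 2670 CPM for 11 mast cell and basophil genes, of which 6 of 8 tested rose, and 3110 to 4650 against 1900 to 2980 CPM for 18 megakaryocyte and platelet genes, of which 7 rose. A change in the number of cells of a type and a change in RNA per cell cannot be told apart in bulk RNA.

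**Figure D1:**
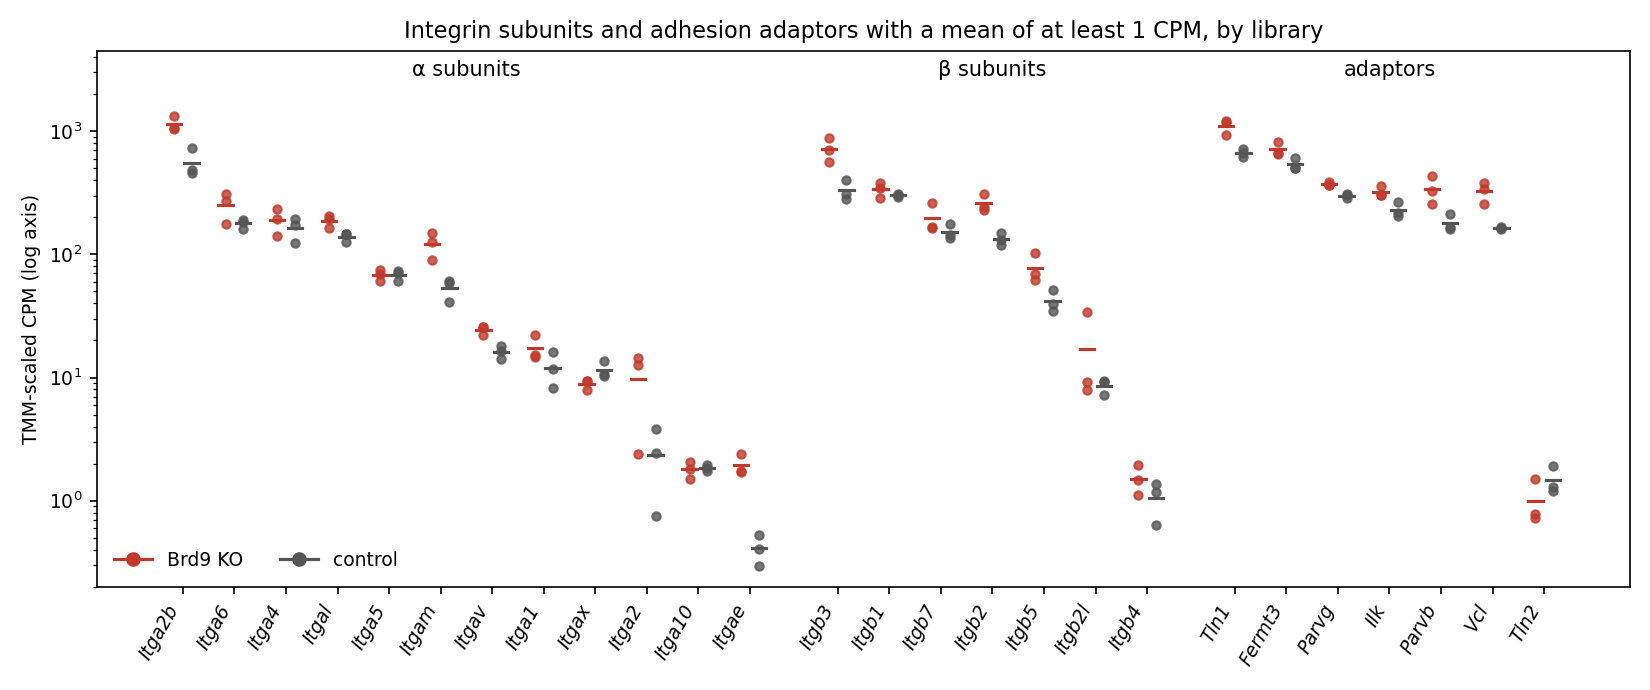
TMM-scaled CPM (log axis) of the members with a mean of at least 1 CPM, in 3 Brd9 KO libraries (red, left) and 3 control libraries (grey, right). Points are libraries and bars are group means. All red points of Itga2b, Itgb3, Itgam, Itgb2, Tln1 and Vcl sit above all grey points, while those of Itga4, Itga5 and Itgb1 overlap them.

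The promoter stretches of 3 called genes are shown because these genes stood for the platelet integrin, the leukocyte integrin and the adaptors, and they were picked after their values were seen. Starts are those of RefSeq, and for Itga2b that start lies inside the outer bounds that GENCODE gives the gene, so most of its stretch and both of its matches fall within those bounds. The RefSeq promoter table matched 27 of the 36 members with 31 windows of 250 bases before the start (GRCm38.p6). Windows were searched on both strands for AGATAA (the letters of GATA factors), for CCGGAA and also GAGGAA (ETS factors) and for the CArG box bound by serum response factor, which regulates actin cytoskeleton genes. Capitals mark the matches. Itga2b lies on the minus strand with its stretch at chr11:102469884-102470133, Itgam on the plus strand with chr7:128062390-128062639, and Vcl on the plus strand with chr14:20929148-20929397.
Itga2b: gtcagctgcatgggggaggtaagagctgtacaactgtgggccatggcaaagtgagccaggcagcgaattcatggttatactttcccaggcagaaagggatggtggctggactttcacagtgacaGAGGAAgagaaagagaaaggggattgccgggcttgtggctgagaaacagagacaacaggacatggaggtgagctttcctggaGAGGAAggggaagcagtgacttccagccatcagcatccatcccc
Itgam: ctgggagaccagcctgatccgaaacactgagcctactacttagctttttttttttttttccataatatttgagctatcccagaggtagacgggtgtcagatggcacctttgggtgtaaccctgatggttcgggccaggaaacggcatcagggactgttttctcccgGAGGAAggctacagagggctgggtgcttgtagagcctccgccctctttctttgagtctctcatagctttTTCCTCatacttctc
Vcl: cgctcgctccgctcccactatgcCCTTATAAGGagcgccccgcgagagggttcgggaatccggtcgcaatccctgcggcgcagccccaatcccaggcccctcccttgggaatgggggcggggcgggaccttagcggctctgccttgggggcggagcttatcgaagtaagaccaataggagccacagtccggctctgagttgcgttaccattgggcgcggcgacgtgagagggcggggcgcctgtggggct
The ETS letters stood 126 to 121 and 44 to 39 bases before the RefSeq start of Itga2b. In Itgam they stood 84 to 79 bases before the start and, on the other strand, 15 to 10 bases before it. The CArG box of Vcl stood 227 to 218 bases before its start. ETS letters occurred in 14 of the 31 member windows and in 32.7% of all 32851 windows, AGATAA in 1 member window and 9.99% of all, and a CArG box in 3 member windows and 1.47% of all. A match is a description of the letters only.

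The platelet integrin pair rose together. Itga2b (chr11:102453297-102470122, GRCm38), the αIIb subunit, was at 1320, 1050 and 1060 CPM in KO libraries 1 to 3, against 726, 483 and 460 CPM in control libraries. The groups did not overlap, and library 1 was the highest in each. Its log2 fold change was 1.04 ± 0.20 (SE, n = 3 each; edgeR adjusted p = 0.0225). Itgb3 (chr11:104608000-104670476), the β3 subunit that pairs with αIIb and αv, was at 883, 702 and 566 CPM in KO libraries, against 404, 311 and 279 CPM in control libraries. Every KO library was again above every control library, and the log2 fold change was 1.11 ± 0.20 (adjusted p = 0.0182). The ratio of Itga2b to Itgb3, taken on TPM (transcript abundance scaled for length and depth), was 2.58 to 3.22 in KO libraries and 2.68 to 3.10 in control libraries, so it overlapped. In the megakaryocyte and platelet list, to which neither gene belongs, 7 of 18 genes rose and 0 fell, beside 9.19% and 6.25% of all tested genes. The log2 fold change was positive for 16 of the 18 (median 0.68) and for 6716 of all 12953 tested genes. Pf4 (platelet factor 4) rose by 1.53 ± 0.31 on the log2 scale, whereas Treml1, a platelet granule receptor, was not called at -0.03 ± 0.29. These markers moved beside Itga2b and Itgb3, and their part in the result was not tested. Itga2, the α2 subunit of the platelet collagen receptor, was at 12.6, 14.4 and 2.41 CPM in KO libraries, against 0.757, 3.84 and 2.43 CPM in control libraries. KO library 3 fell within the control range, and the gene was not called (log2 fold change 2.08 ± 0.71, adjusted p = 0.112). Without that library it was 2.54 with adjusted p = 0.0116, in a range of 0.0116 to 0.277 over all 21 alternatives.

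The leukocyte integrins rose in all 3 of their widely expressed chains. Itgb2, the common β2 subunit (CD18) that pairs with Itgal, Itgam and Itgax, was at 228, 243 and 312 CPM in KO libraries, against 119, 131 and 149 CPM in control libraries. The lowest KO library was above the highest control library, and the log2 fold change was 0.97 ± 0.15 (adjusted p = 0.0108). Itgam (chr7:128062640-128118491), the αM chain of the complement receptor CR3, was at 90.7, 125 and 150 CPM in KO libraries, against 40.9, 60.3 and 58.9 CPM in control libraries. The groups did not overlap, with a log2 fold change of 1.19 ± 0.22 (adjusted p = 0.0191). Its protein, CD11b, was among the lineage markers by which mature cells were depleted before sequencing. KO library 3, the library with the high neutrophil markers, was the highest for both genes, and without it the log2 fold changes were 1.01 for Itgam and 0.82 for Itgb2, with adjusted p = 0.0133 (range over alternatives 7.91e-06 to 0.0681) and 0.00517 (5.57e-07 to 0.0562). Itgal, the αL chain of the lymphocyte integrin LFA-1, was at 195, 203 and 164 CPM in KO libraries, against 125, 145 and 146 CPM in control libraries. It did not overlap but changed less, by 0.43 ± 0.12 (adjusted p = 0.0677), and it lost its call in 10 of 21 alternatives. On TPM, Itgal stood at 0.280 to 0.453 of Itgb2 in KO libraries against 0.518 to 0.588 in control libraries, and Itgam at 0.237 to 0.304 against 0.205 to 0.274.

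Itgax, the αX chain of dendritic cells and macrophages, went the other way without a call. It was at 9.41, 9.35 and 7.96 CPM in KO libraries, against 10.7, 10.2 and 13.7 CPM in control libraries (log2 fold change -0.37 ± 0.17, adjusted p = 0.208), and it is described because its groups did not overlap. Its counts were not whole in 2 libraries, which marks reads shared with another gene. Itgb2l, a β2-like gene of mouse neutrophils, was at 7.86, 9.17 and 33.8 CPM in KO libraries, against 9.31, 7.25 and 9.16 CPM in control libraries. Only KO library 3 was high. The log2 fold change of 0.97 ± 0.52 (adjusted p = 0.264) became -0.01 without that library, in which the neutrophil markers were high as well.

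Itgae, the αE chain (CD103) that pairs with β7 and binds E-cadherin, had the largest log2 fold change among the called members, 2.23 ± 0.32 (adjusted p = 0.00877), at a low level. It was at 1.72, 1.75 and 2.41 CPM in KO libraries, or 42, 48 and 50 counts, against 0.530, 0.295 and 0.405 CPM, or 14, 7 and 11 counts, in control libraries. All KO libraries exceeded all control libraries, and the smallest fold within the 95% interval was 2.80. Control library 2 was under the minimum count of 10, so the gene passed the filter on low counts through its KO libraries. Its partner Itgb7 was at 168, 164 and 260 CPM in KO libraries, against 144, 137 and 176 CPM in control libraries, and was not called (0.37 ± 0.20, adjusted p = 0.26). Itgae amounted to 0.00636 to 0.00723 of Itgb7 on TPM in KO libraries and 0.00148 to 0.00256 in control libraries. Cells that carry Itgae include mucosal T cells and dendritic cells. Of 9 T cell markers tested, 1 (Cd4) rose, and 3 were higher and 0 lower at an unadjusted edgeR p under 0.05. Their log2 fold change was positive for 7 of the 9, with a median of 0.46. The summed level was 62.4 to 98.8 CPM in KO libraries against 44.9 to 69.0 CPM in control libraries. Cd3e was at 1.42 to 2.41 CPM in KO and 1.05 to 1.80 CPM in control libraries. Of 11 dendritic cell markers, 0 rose, also at an unadjusted p under 0.05, and 2 fell. The shares of all tested genes called higher and lower were 9.19% and 6.25%. The part of these or other cell types in the Itgae values was not tested.

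The αv integrins rose with smaller changes. Itgav, the αv chain that binds vitronectin and activates latent TGF-β, was at 25.7, 25.5 and 22.1 CPM in KO libraries, against 14.1, 16.5 and 18.2 CPM in control libraries. The groups did not overlap (0.59 ± 0.14, adjusted p = 0.041), and the call was lost in 7 of 21 alternatives. Itgb5, its β5 partner, was at 102, 69.2 and 61.4 CPM in KO libraries, against 51.1, 39.8 and 34.7 CPM in control libraries. It also did not overlap (0.89 ± 0.22, adjusted p = 0.0467), and the call was lost in 3 of 21.

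The integrins known for niche retention were not called. Itgb1, the β1 subunit shared by the collagen, laminin and fibronectin receptors, was at 377, 347 and 289 CPM in KO libraries, against 293, 310 and 302 CPM in control libraries. KO library 3 was below all control libraries, and the log2 fold change was 0.16 ± 0.12 (adjusted p = 0.414), with a 95% interval of -0.12 to 0.44. Itga5, the fibronectin receptor chain, was at 69.1, 74.1 and 61.0 CPM in KO libraries, against 60.7, 73.3 and 71.1 CPM in control libraries. Its log2 fold change was -0.01 ± 0.12 (adjusted p = 0.977), within a 95% interval of -0.28 to 0.27, and its sign turned in 7 of 21 alternatives. Itga6, the α6 laminin receptor chain used to mark stem cells (CD49f), was at 310, 272 and 177 CPM in KO libraries, against 191, 184 and 162 CPM in control libraries. KO library 3 lay inside the control range. The change of 0.50 ± 0.20 was not called (adjusted p = 0.152), and it was 0.70 without that library (adjusted p = 0.00887, range over alternatives 0.00887 to 0.4). Itga4, the α4 chain that binds VCAM-1, overlapped at 193, 233 and 141 CPM in KO libraries, against 123, 194 and 174 CPM in control libraries (0.21 ± 0.22, adjusted p = 0.562), and is given although it falls outside the rule for naming genes.

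The make-up of the integrin transcripts follows from these values. Itga2b held 65.4% to 71.6% of the summed α subunit TPM in KO libraries and 55.1% to 68.7% in control libraries. Itgb1 held 16.8% to 21.9% of the summed β subunit TPM in KO libraries and 27.2% to 30.6% in control libraries, so the groups did not overlap, while Itgb3 held 23.6% to 35.7% against 18.6% to 26.9% and Itgb2 19.3% to 27.2% against 16.6% to 20.9%. In TPM, the highest members were Itga2b (599.9, 522.3 and 391.6) and Fermt3 (501.4, 450.3 and 330.9) in KO libraries, whose levels overlapped. In control libraries they were Fermt3 (273, 284 and 268) and then Itga2b (240, 199.5 and 179.9), which did not overlap.

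**Figure D2:**
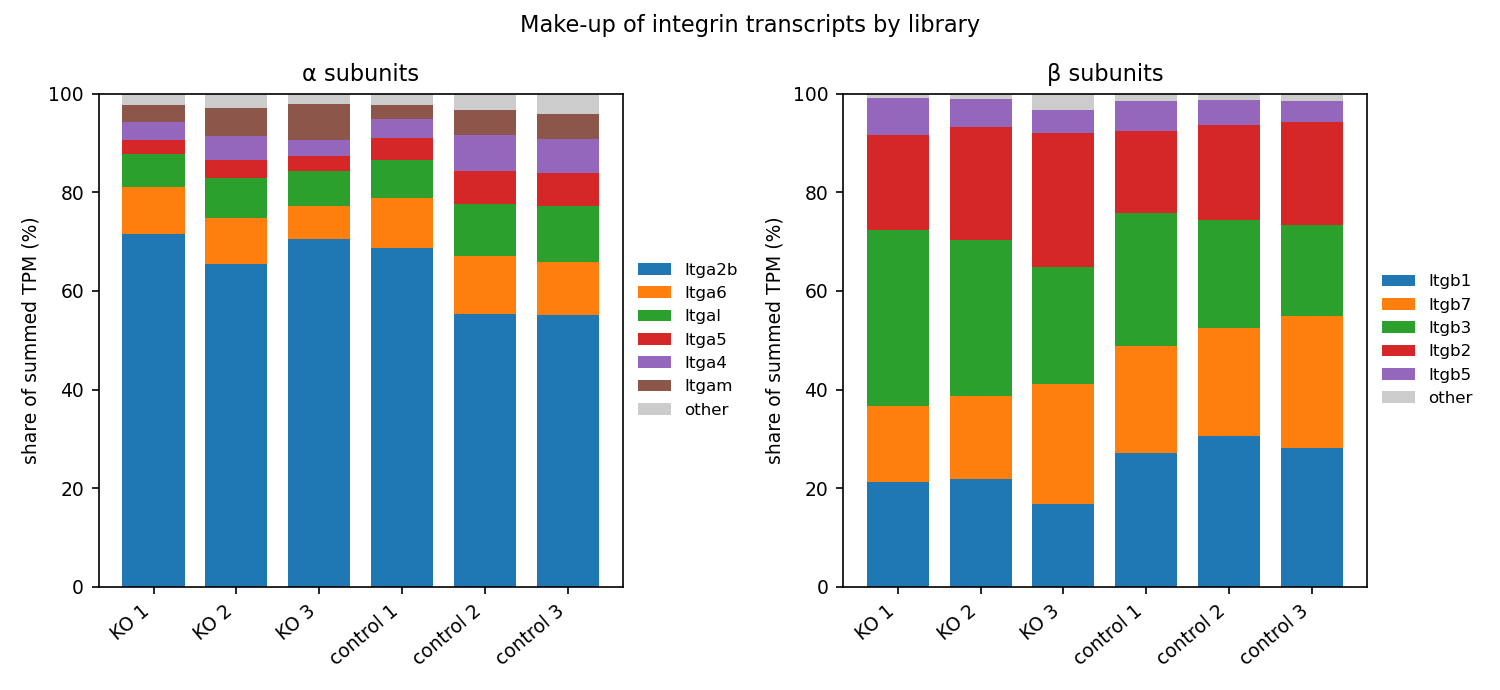
Share (%) of each α subunit (left panel) and β subunit (right panel) in the summed TPM of its class, 1 bar per library, with the Brd9 KO libraries left of the control libraries. Itgb1 takes 16.8% to 21.9% of β subunit TPM in KO libraries and 27.2% to 30.6% in control libraries.

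Among the adaptors, vinculin (Vcl), the protein that binds talin and actin filaments, had the smallest adjusted p. It was at 382, 339 and 258 CPM in KO libraries, against 164, 168 and 162 CPM in control libraries, with no overlap and a log2 fold change of 0.99 ± 0.15 (adjusted p = 0.00995). Tln1, the talin of blood cells that activates integrins, was at 1200, 1190 and 923 CPM in KO libraries, against 612, 721 and 664 CPM in control libraries. All KO libraries were higher (0.73 ± 0.14, adjusted p = 0.0226). Fermt3, the kindlin of blood cells, was at 813, 668 and 659 CPM in KO libraries, against 610, 507 and 506 CPM in control libraries. Its groups did not overlap either, yet it missed the threshold (0.40 ± 0.13, adjusted p = 0.106), which it passed in 9 of 21 alternatives. Its TPM ratio to Tln1 was 1.98 to 2.50 in KO libraries and 2.46 to 3.49 in control libraries.

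The complex of integrin-linked kinase with parvins rose as well. Parvb (β-parvin) was at 431, 330 and 256 CPM in KO libraries, against 213, 167 and 161 CPM in control libraries (0.91 ± 0.20, adjusted p = 0.0358). The groups did not overlap, and the call was lost in 3 of 21 alternatives. Parvg (γ-parvin, the blood cell form) was at 384, 367 and 368 CPM in KO libraries, against 308, 304 and 286 CPM in control libraries. It had the smallest change of the called members (0.32 ± 0.09, adjusted p = 0.0789) with tight replicates, and the call was lost in 9 of 21 alternatives. Their TPM ratio, Parvb to Parvg, was 0.488 to 0.786 in KO libraries and 0.383 to 0.485 in control libraries. Ilk, the scaffold of the complex, was at 361, 301 and 305 CPM in KO libraries, against 266, 206 and 216 CPM in control libraries (0.49 ± 0.13, adjusted p = 0.0652). The groups did not overlap, and the call was lost in 6 of 21 alternatives. In the GENCODE annotation 76.7% of the exonic bases of Ilk overlap the antisense gene Taf10 (-0.38 ± 0.14, adjusted p = 0.128) and 25.5% of those of Vcl overlap Ap3m1 (0.09 ± 0.14, adjusted p = 0.71). Library preparation was unstranded according to the labels and stranded according to the methods, so the Ilk and Vcl values may hold reads of their partners. For Itgam, 68.7% of the exonic bases overlap Gm49368 on the same strand, so reads of both cannot be told apart there.

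**Figure D3:**
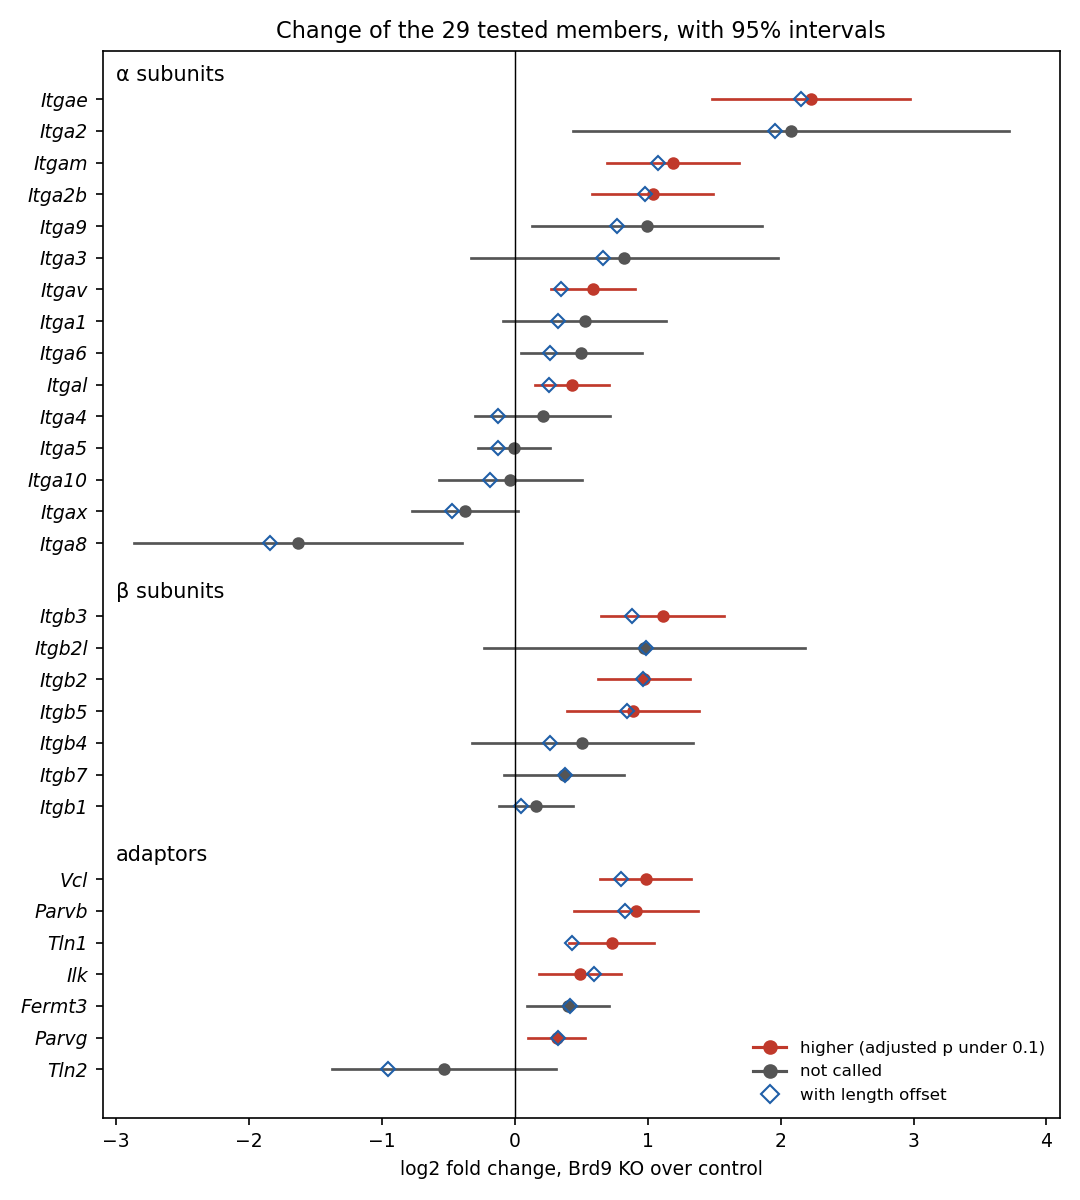
Log2 fold change (Brd9 KO over control) of the 29 tested members by class, with 95% intervals from edgeR. Red marks the 13 called higher, grey the 16 not called, and open blue diamonds the value after a correction for transcript length, which all 13 red genes keep above 0.

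The remaining members were low, except Itga1 at 15.1, 22.1 and 14.6 CPM in KO libraries against 8.21, 11.8 and 16 CPM in control libraries. Itga8, the nephronectin receptor chain, was at 0.368, 0.582 and 0.482 CPM in KO libraries, against 1.32, 0.590 and 2.54 CPM in control libraries (-1.63 ± 0.54, adjusted p = 0.102). The closest pair was 0.582 and 0.590 CPM, and the gene is described because its groups did not overlap. Itga1, Itga3, Itga9 and Itgb4 had log2 fold changes of 0.51 to 0.99, Itga10 of -0.03 and Tln2 of -0.53, and none was called. In all, 11 of the 16 uncalled members had a positive and 5 a negative log2 fold change. Itga10, a collagen-binding chain, was at 1.51, 1.82 and 2.07 CPM in KO libraries, against 1.74, 1.94 and 1.84 CPM in control libraries, and its sign turned in 6 of 21 alternatives. Of the 7 members not tested, Itgb8 and Fermt1 had a count of 0 in all 6 libraries, which allows up to 0.109 to 0.145 CPM per library for 3 counts, and Itga7, Itga11, Itgb6, Fermt2 and Parva were under 0.5 CPM in every library. Parva (α-parvin) was at 12, 12 and 7 counts in KO libraries and 2, 0 and 2 counts in control libraries. It was called higher in all 8 alternatives that tested it. Its control counts were under the minimum count of 10, so it could pass that filter only through KO libraries. The 8 calls are therefore no separate support.

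Fold changes in this series ran with transcript length. In 10 equal groups of genes by effective length, the median log2 fold change ran from -0.28 in the shortest (96 to 886 bases) to 0.28 in the longest (5723 bases and over), and the share called higher from 2.78% to 18.1%. The tested members were long, with a median of 4459 bases against 2553 bases for all tested genes, and 20 of the 29 stood in the 3 longest groups, of which 7 were called higher. The longest genes deviated from the mean of all libraries by a median of 0.18, 0.33 and -0.09 (log2) in KO libraries and -0.35, 0.02 and -0.06 in control libraries, so the trend differed between libraries of 1 group. When a length trend was fitted per library and taken out, in an alternative chosen after seeing the data, all 13 members kept their call. Their values moved most for long genes, with Tln1 at 0.43 ± 0.08 and Itgav at 0.35 ± 0.10, and the members' median log2 fold change was 0.42. Itga2 and Fermt3 then passed the threshold upward, and Itga8, Itgax and Tln2 downward, while 1540 of all genes were higher (11.9%) and 1306 lower.

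**Figure D4:**
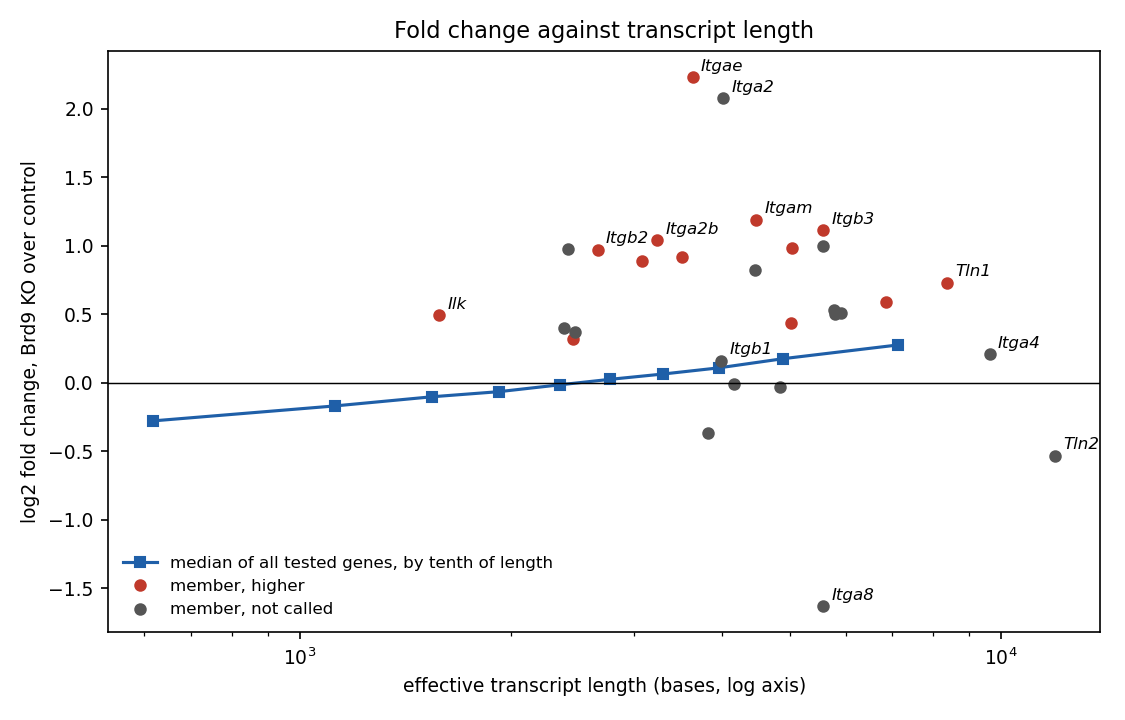
Log2 fold change (Brd9 KO over control) against effective transcript length in bases (log axis). Blue squares are medians of all tested genes in 10 groups of equal size and run from -0.28 to 0.28, red points are members called higher and grey points members not called. All red points lie above the blue line, which follows largely from their being called higher, and grey points lie on both sides.

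The call depended on single libraries. The count of members called higher was 7 without KO library 1, 9 without KO library 2, 18 without KO library 3, and 11, 8 and 9 without control libraries 1, 2 and 3. The share of all tested genes called higher moved as well, to 3.52%, 4.42% and 16.3% without KO libraries 1, 2 and 3 and 5.21%, 3.67% and 4.35% without control libraries 1, 2 and 3. Itga2b, Itgb3, Itgam, Itgb2, Itgae, Tln1 and Vcl were called in all 21 alternatives, the others not. Since Itgae passed the filter on low counts through its KO libraries, its repeated calls are no separate support. The split of all called genes was 1190 higher and 809 lower with TMM, 1402 and 489 with library totals alone and 1114 and 224 on log2(TPM + 1), where the median of all genes stood at 0.10 and 0.18.

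Ligands of integrins were called in both directions. Of 40 listed, 29 were tested, 10 rose (34.5%) and 3 fell (median log2 fold change 0.42), while 9.19% of all tested genes rose and 6.25% fell. Cdh1 (E-cadherin, the ligand of αEβ7) was at 129, 128 and 154 CPM in KO libraries, against 30.8, 33.1 and 39.8 CPM in control libraries (1.98 ± 0.14, adjusted p = 0.00101). The ligand and the α chain of this pair rose together. Tnc (tenascin C, bound by α9 and αv integrins) was at 6.22, 8.04 and 4.82 CPM in KO libraries, against 0.378, 0.127 and 0.368 CPM in control libraries (4.41 ± 0.39, adjusted p = 0.00192). Ibsp (bone sialoprotein), Lama5 (laminin α5) and Nid1 (nidogen) rose by 2.47 ± 0.26, 1.84 ± 0.27 and 3.05 ± 0.45. Nid1 was low, at 29, 52 and 18 counts in KO libraries against 5, 4 and 3 counts in control libraries. In control libraries Tnc had 10, 3 and 10 counts, and Jam2, also among the 10 that rose, had 11, 7 and 13 counts. Nid1, Tnc and Jam2 therefore passed the filter on low counts through their KO libraries. The genes that fell were Lamb1 (laminin β1, -1.66 ± 0.28), Vcam1 (the α4β1 counter-receptor, -1.40 ± 0.25) and Lgals3bp (-0.43 ± 0.13), of which Vcam1 and Lgals3bp were singled out after their values were seen. Vcam1 was at 17.1, 26.2 and 31.7 CPM in KO libraries, against 49.8, 76.3 and 72.2 CPM in control libraries. Tgfb1 (0.17 ± 0.10) and Thbs1 (-0.49 ± 0.19) were the most abundant ligands by CPM that were not called. Tnc and Vcam1 stand in a list of 15 mesenchymal stroma markers as well. Of the 14 tested there, 11 rose, Tnc among them, and 1 fell, which was Vcam1. Summed levels of this list were 155 to 223 CPM in KO libraries against 91.9 to 132 CPM in control libraries. In the macrophage list, which also holds Vcam1, 6 of 12 tested rose and 2 fell. The part of stromal or macrophage RNA in the ligand values was not tested.

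Among regulators of integrin activation, 8 of 24 tested rose (33.3%) and 0 fell (edgeR, median log2 fold change 0.19). Beside them, 9.19% of all tested genes rose and 6.25% fell. At an unadjusted p under 0.05, 1 regulator was lower, and DESeq2, limma-voom and limma on log2(TPM + 1) called 0 regulators lower. Fyb (ADAP, which links Rap1 signalling to integrins) was at 230, 211 and 195 CPM in KO libraries, against 97.6, 95.3 and 104 CPM in control libraries (1.10 ± 0.10, adjusted p = 0.00259). Rap1gap2, which turns Rap1 off, rose by 1.18 ± 0.18, so both an activator and an inhibitor were higher. The related Rap1gap went the other way without a call (-0.61 ± 0.25, edgeR adjusted p = 0.157). It was the 1 regulator lower at an unadjusted p under 0.05 and is given although it falls outside the rule for naming genes. Arhgap6 rose by 1.20 ± 0.20 and Kank2, which binds talin, by 1.14 ± 0.22. Flna, a filamin that competes with talin for β tails, rose by 0.67 ± 0.15. Rap1b (0.37 ± 0.13) and Rasgrp2 (0.09 ± 0.11), the GTPase and its exchange factor, were not called.

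Among focal adhesion adaptors and kinases, 14 of 36 tested rose (38.9%) and 0 fell (edgeR, median log2 fold change 0.29). Again, the shares over all tested genes were 9.19% higher and 6.25% lower. The same alternative tools called 0 lower in this list as well, and 1 of its genes was lower at an unadjusted p under 0.05. There were 2 lower with the length offset, 4 with the offset and no KO library 3, and 1 without KO library 3 alone. Syk, the kinase that signals from β2 and β3 integrins, was at 306, 298 and 259 CPM in KO libraries, against 162, 178 and 171 CPM in control libraries (0.75 ± 0.11, adjusted p = 0.00791). Actn1 (α-actinin) and Zyx (zyxin), both actin-associated, rose by 0.999 ± 0.16 and 0.77 ± 0.14. Tns2 (tensin 2) rose by 1.59 ± 0.28, Ptk2b (the kinase Pyk2) by 0.46 ± 0.09 and Lims1 (PINCH1, the partner of integrin-linked kinase) by 0.66 ± 0.14. Tns2 was low, at 39, 51 and 30 counts in KO libraries against 12, 12 and 18 counts in control libraries. Rac2 (0.26 ± 0.15) and Rac1 (0.10 ± 0.13) were the most abundant genes by CPM that were not called.

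**Figure D5:**
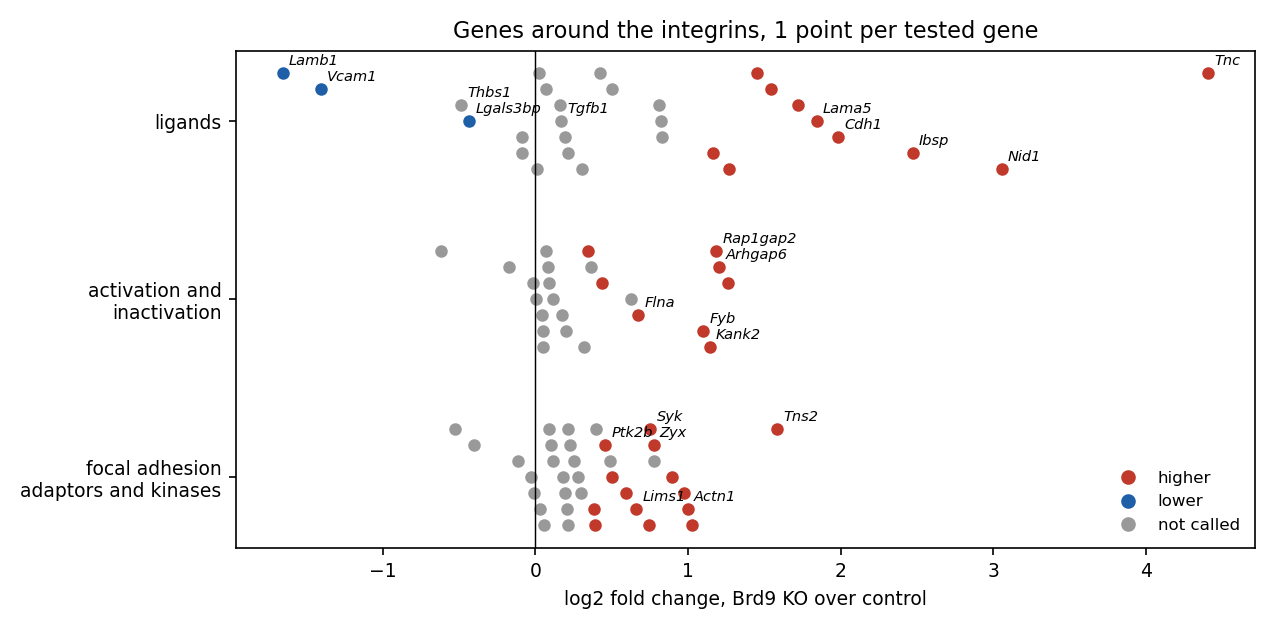
Log2 fold change (Brd9 KO over control) of tested genes in 3 lists around the integrins, 1 point per gene, with vertical spread only to separate points. Red marks genes called higher (10, 8 and 14 from top to bottom), blue the 3 ligands called lower and grey those not called.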

How the data were processed

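Poly(A)-selected RNA of 6 marrow samples was sequenced, and 1 gene table per sample was deposited. Per the study's methods the authors ran the nf-core/rnaseq pipeline with STAR and RSEM on mm10, and deposited an expected count, a TPM and an effective length for each gene. Expected counts were rounded to whole numbers, filtered with filterByExpr (minimum count 10), scaled by TMM and compared with edgeR 4.0.16 in R 4.3.3 (quasi-likelihood test, no covariate, common coefficient of variation 0.175). P-values were adjusted over all 12953 genes tested. SE is the log2 fold change over the root of F. The procedure was tested on simulated data. Intervals on counts of 0 cover counting error only. Alternatives used other scalings, filters, thresholds and fits, limma 3.58.1, DESeq2 1.42.0, a replicate block, each library left out, and, added after seeing the data, a length offset. Independent hypothesis weighting, used by the study, was not run.

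Members and lists were chosen with earlier results of these data known. Every library's value is given for members that were called, for those of at least 1 CPM whose call or sign turned when a library was left out, and for Itgb1, Itgb2, Tln1, Fermt3 and Ilk, and lists are named by up to 6 called genes with the smallest p and the 2 most abundant not called. A gene that this rule names is not reported here. Unmatched marker symbols were Ly6g, Trac, Ighm and Epb42. Pairs of libraries in 1 group differed by more than counting noise (chi-square over its degrees of freedom, 11.1 to 84.6). Other marker lists (higher and lower of those tested) were progenitor 2 and 1 of 10, neutrophil 1 and 2 of 16, macrophage 6 and 2 of 12, endothelial 6 and 0 of 13, NK cell 5 and 1 of 10, B and plasma cell 0 and 0 of 8, and late erythroid 0 and 2 of 7. For all tested genes these shares were 9.19% and 6.25%.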

Additional observations from a re-analysis of the deposited data

How the results depend on the processing

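Of the named members, Itga2b, Itgb3, Itgam, Itgb2, Itgae, Tln1 and Vcl kept direction and call in all 21 alternatives, as did Brd9. For Itgae, which passed the filter on low counts through its KO libraries, these calls are no separate support. Leave-one-out counts ranged from 641 to 4150 for all genes called (1999 with all libraries), 7 to 18 for members called higher, 0 to 1 for members called lower, 10 to 17 for ligands, 5 to 9 for activation genes and 4 to 19 for focal adhesion genes. Members called lower were 1 without a filter, 1 with DESeq2, 3 with the length offset and 2 with the offset and no KO library 3. All genes called were 1165 on log2(TPM + 1) without a filter, 1015 at adjusted p under 0.05, 1225 with a 1.5-fold minimum and 3427 with the offset and no KO library 3. Focal adhesion genes called were 9 on log2(TPM + 1) without a filter and 7 at 0.05, and ligands called were 21 with the offset and no KO library 3. The log2 fold change turned to 0.082 (library totals), 0.199 (log2(TPM + 1), with and without the filter) and 0.208 (log2(TPM + 0.1)) for Itga5 and to 0.052, 0.052 and 0.132 for Itga10, with leave-one-out ranges of -0.087 to 0.065 and -0.141 to 0.083. For Itgb2l that range was -0.013 to 1.323. The causes were not tested.

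Replicate numbers are shared by the groups, but same-numbered libraries correlated at -0.09, 0.47 and 0.02 in their deviations, so the numbers were not taken as pairs. With a replicate block, 2077 of all genes and 14 members were called, of which 12 were shared, with Parvg lost and Itga6 and Fermt3 gained. At 3 libraries a group, counts below 100 in every library, as for Itgae, Itga8, Parva, Nid1 and Tns2, limit precision.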
